A study of Homo sapiens with 8 samples.

Results

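The E2F family of transcription factors, their dimer partner TFDP1 and their restraint RB1 were followed in the human neuroblastoma cell line IMR32, in which MYCN is amplified. The 10 genes (E2F1 to E2F8, RB1 and TFDP1) were taken by symbol from the 58787 Ensembl genes of one deposited table of raw counts; the rule uses no measured value, but the set was proposed with earlier results of these data known. Wild-type IMR32 cells had received either 0.1% DMSO, the vehicle, or CR31B at its IC50 for 6 h, with 4 libraries of polyadenylated RNA in each group. CR31B is a rocaglate, a class of compounds that blocks the RNA helicase eIF4A, which unwinds leader sequences so that ribosomes can load. All cells came from 1 line, so the replicates cover that line alone, and whether each was a separate treatment was not established here. The concentration behind "IC50" is not given in the sources used here. Replicates carry numbers from 1 to 4 in both groups, and same-numbered libraries are called a pair.

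E2F proteins bind DNA at the promoters of genes needed for S phase, most of them as dimers with a DP protein such as TFDP1. In resting cells and early G1 the pocket protein RB1 holds E2F1, E2F2 and E2F3 inactive. Cyclin-dependent kinases then phosphorylate RB1, the E2Fs are released, and the E2F genes themselves are among the genes switched on. E2F4 and E2F5 act mainly as repressors with the other pocket proteins, E2F6 represses through Polycomb complexes, and E2F7 and E2F8 are repressors that bind without a DP partner and shut the program down late in S phase. In neuroblastoma with amplified MYCN, the MYCN protein drives entry into the cell cycle.

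Total counts ranged from 43687828 to 64715535 per library. Per the labels, pair 1 was sequenced paired-end, and pairs 2 to 4 (6 libraries) single-end. The difference between the groups ran differently in the 2 layouts. The interaction of layout and treatment passed an adjusted p of 0.05 in 7027 of 16518 tested genes (edgeR), or 42.5%, with a spread that comes from the single-end libraries because the paired-end layout has 1 library per group. Values are therefore given for pair 1 apart from pairs 2 to 4, and no label was changed. Which labels describe the treatment, those of pair 1 or those of pairs 2 to 4, cannot be told from these values. "Rose" and "fell" below follow the labels of pairs 2 to 4 and would turn if those labels were exchanged. Both words refer to RNA, and protein was not examined here. All 10 of 10 adrenergic neuroblast markers, HAND2 among them, averaged at least 1 CPM (counts scaled to a common total, TMM-normalised). Their summed level was 2844 to 3920 CPM in DMSO libraries and 2931 to 4058 CPM in CR31B libraries. In the single-end libraries 8 of these 10 markers were called, 4 higher (GATA3 with a log2 fold change of 1.78 and HAND2 with 0.97 among them) and 4 lower (DBH with -0.98 and STMN2 with -0.81 among them). Of 8 mesenchymal markers, COL1A1, FN1 and TWIST1 reached 1 CPM, with means of 23.45, 23.39 and 158.8 CPM. The 8 summed to 191.9 to 226.7 CPM in DMSO libraries and 187.7 to 245.5 CPM in CR31B libraries. A list of 10 leukocyte, epithelial and endothelial markers summed to 1.08 to 3.64 CPM in DMSO libraries and 1.71 to 3.08 CPM in CR31B libraries, with 8 of the 10 under 0.1 CPM. The 2 markers of that list with enough counts to test, PTPRC and CDH5, were both called lower in the single-end libraries (-0.87 and -0.76), at 0.561 and 1.73 CPM on average. The part of these marker changes in the results below was not tested.

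With all 8 libraries as labelled, no E2F gene, RB1 or TFDP1 passed the test of CR31B against DMSO. This fit takes the same treatment difference in both layouts, although pair 1 ran the other way for many genes. It therefore cannot show that a gene did not differ. For E2F8 the SE of the log2 fold change was 0.26 in this fit and 0.065 in the single-end libraries. Of the 10 members, all of them expressed enough to be tested, 0 had an adjusted p under 0.05 in edgeR, against 0% of all 16518 tested genes (0 genes). The counts were also 0 with DESeq2 and with limma voom. At an unadjusted p under 0.05 there were 0 members and 205 genes, and the members' adjusted p lay between 0.707 and 0.888 (edgeR).

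Within the 6 single-end libraries the members parted. E2F8, RB1, E2F3 and E2F2 were higher with CR31B, and E2F1 and TFDP1 were lower. That makes 6 of 10 members past an adjusted p of 0.05, where 41.3% of 16696 tested genes passed. The 4 that rose stand against 23.8% of genes called higher, and the 2 that fell against 17.6% called lower. With replicate number as a block, 8 of 10 members (4 higher and 4 lower) and 51.1% of genes passed. The number of members called lower was 6 under upper quartile scaling, 4 with GC and length offsets or scaled by total counts, and 1 without DMSO replicate 4. The share of higher genes among all called genes was 57.5% with TMM, 40% with upper quartile scaling and 43.1% with total counts. The members' median log2 fold change was -0.063, beside -0.007 for all tested genes. In these 6 members the 3 CR31B libraries and the 3 DMSO libraries did not overlap, and in the other 4 they did. Over all tested genes the groups did not overlap in 52.1%. In pair 1 each of the 6 differed in the opposite direction, as did 98.9% of all called genes, and the interaction passed for these same 6 members. RNA was measured in bulk, so fewer cells in a phase of the cell cycle and less RNA per cell cannot be told apart.

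**Figure D1:**
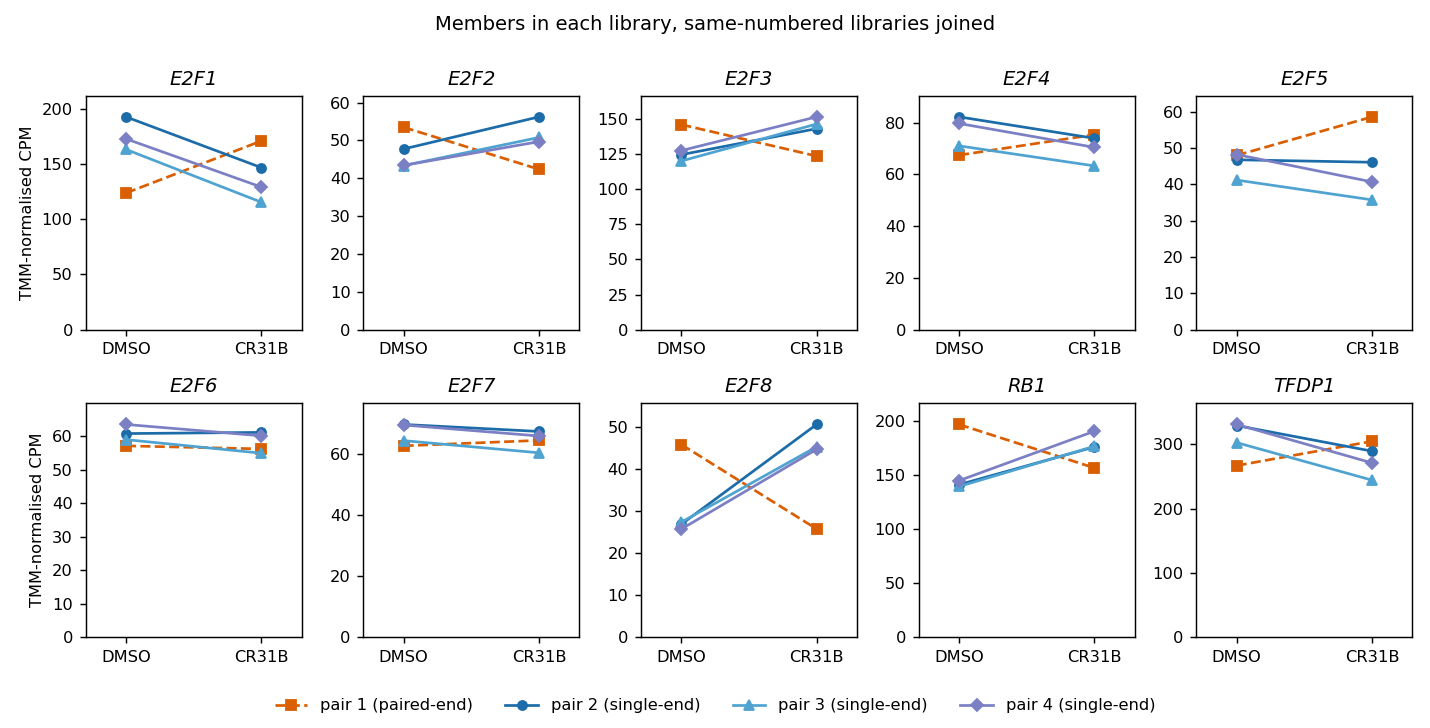
TMM-normalised CPM (vertical axis from 0) of each member in the DMSO and CR31B libraries, with same-numbered libraries joined by a line. The solid lines of pairs 2 to 4 run the same way for 9 of the 10 members, E2F6 being the exception. The dashed line of pair 1 crosses all of them for E2F1, E2F2, E2F3, E2F4, E2F8, RB1 and TFDP1.

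The activating E2Fs did not move as one. E2F1, the member best known for driving S-phase genes, had 193, 163 and 173 CPM in DMSO libraries 2, 3 and 4 and 147, 115 and 129 CPM in the CR31B libraries of the same numbers. All 3 CR31B libraries lay below all 3 DMSO libraries. The means were 176 ± 15.1 CPM (SD, n = 3) with DMSO and 130.4 ± 15.7 CPM (SD, n = 3) with CR31B. E2F1 fell to 0.741 of its DMSO level, a log2 fold change of -0.43 ± 0.088 (SE; adjusted p 0.00289, edgeR, with the Benjamini-Hochberg adjustment over all tested genes that every adjusted p here has). In pair 1 the order was reversed, with 171 CPM in the library labelled CR31B and 124 CPM in the library labelled DMSO.

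E2F3, an activator with several start sites whose RNAs are summed here, went the other way. It had 124.6, 120.1 and 127.5 CPM in DMSO libraries 2 to 4 and 143, 146 and 151.5 CPM with CR31B, so the groups were separate. Its log2 fold change was 0.25 ± 0.049 (SE; adjusted p 0.00238, edgeR). It was 0.15 under upper quartile scaling (adjusted p 0.0169, edgeR) and 0.16 with offsets for GC content and length (adjusted p 0.0262). E2F2, the third activator, had 47.7, 43.4 and 43.4 CPM with DMSO and 56.2, 50.8 and 49.7 CPM with CR31B. Here too the lowest CR31B library lay above the highest DMSO library, by a small margin. The log2 fold change of E2F2 was 0.22 ± 0.065 (SE; adjusted p 0.0202, edgeR). The E2F2 call was lost with upper quartile scaling (0.13, adjusted p 0.144), with total counts (0.14, adjusted p 0.105), and without DMSO replicate 3 (0.19, adjusted p 0.0814), DMSO replicate 4 (0.21, adjusted p 0.0739) or CR31B replicate 2 (0.17, adjusted p 0.0672), all in edgeR. In pair 1 the library labelled CR31B was the lower one for both genes, by -0.24 for E2F3 and -0.34 for E2F2 on the log2 scale.

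The promoters of these 3 genes are shown because E2F proteins are known to act on E2F genes, and because their RNAs moved in different directions. The 110 bases before the RefSeq start are given 5′ to 3′ on the gene's strand (GRCh38.p14), with the E2F-type words TTTCGCG and TTTGGCG in capitals. The E2F1 stretch is chr20:33686386-33686495 (minus strand), the E2F2 stretch chr1:23531234-23531343 (minus strand) and the E2F3 stretch chr6:20401769-20401878 (plus strand).
E2F1: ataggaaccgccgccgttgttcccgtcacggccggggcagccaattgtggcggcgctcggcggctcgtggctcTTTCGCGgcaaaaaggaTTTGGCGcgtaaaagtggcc
E2F2: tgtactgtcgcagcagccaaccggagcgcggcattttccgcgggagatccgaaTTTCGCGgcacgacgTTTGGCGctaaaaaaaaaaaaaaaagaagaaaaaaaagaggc
E2F3: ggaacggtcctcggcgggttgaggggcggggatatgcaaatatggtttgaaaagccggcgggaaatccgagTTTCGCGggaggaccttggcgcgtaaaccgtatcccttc

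E2F1 and E2F2 each carried both words on the gene's own strand, although E2F1 fell and E2F2 rose in the single-end libraries. In E2F1 they began at positions -37 and -20 relative to the start, and in E2F2 at -57 and -42. E2F3 carried TTTCGCG at position -39. The words were chosen after the promoter sequences had been seen and were searched on both strands of windows from 250 bases before to 50 after each start. TTTCGCG was present in 1.32% and TTTGGCG in 1.92% of 35116 such windows of all genes, and 3.19% held at least one. Windows of 8 of the 10 members were searched. The search of the members left out chromosome 8, which holds E2F5, so E2F5 was not examined, and no window was found for E2F8. TFDP1 had TTTCGCG on the opposite strand at -119, while neither word was in the windows of E2F4, E2F6 and E2F7. The window listed for RB1, which also held neither, starts at 48476200 on chromosome 13, inside the gene, and does not cover its upstream end. CACGTG, the E-box bound by MYC proteins with MAX, was found in 7.26% of all windows. Among the 8 members searched it was found once, in a second window of E2F3.

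The RNA of TFDP1, the DP subunit that most E2Fs need to bind DNA, fell together with that of E2F1. It had 329, 303 and 331 CPM in DMSO libraries 2 to 4 and 289.6, 244.5 and 271 CPM with CR31B. The groups did not overlap, and its level with CR31B was 0.837 of that with DMSO. The log2 fold change was -0.26 ± 0.068 (SE; adjusted p 0.0118, edgeR). Without DMSO replicate 4 it was -0.23 with an adjusted p of 0.053 (edgeR). In pair 1 TFDP1 had 305 CPM in the library labelled CR31B and 267 CPM in the library labelled DMSO.

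The RNA of RB1, the retinoblastoma protein that binds and silences the activating E2Fs, rose. It had 141, 139 and 145 CPM in DMSO libraries 2 to 4 and 176, 176 and 190.3 CPM in the CR31B libraries. The means were 142 ± 2.79 CPM (SD, n = 3) and 181 ± 8.23 CPM (SD, n = 3), with a gap between the groups larger than either spread. RB1 was 1.28-fold higher with CR31B, a log2 fold change of 0.35 ± 0.051 (SE; adjusted p 0.000327, edgeR). The size of this rise depended on the correction for composition: with GC and length offsets it was 0.17 with an adjusted p of 0.0193 (edgeR). Pair 1 had 156.5 CPM in the library labelled CR31B and 197 CPM in the library labelled DMSO. Both lay above all single-end DMSO libraries, and the library labelled DMSO lay above the single-end CR31B libraries as well.

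The repressors that work with pocket proteins or Polycomb, E2F4, E2F5 and E2F6, did not pass the test in the fit without a replicate block. E2F4 is the E2F of quiescent cells and of the DREAM complex, which silences cell cycle genes. It ranged from 71.1 to 82.3 CPM in the single-end DMSO libraries and from 63.3 to 74 CPM with CR31B, with overlap. Its log2 fold change was -0.16 ± 0.073 (SE) and the adjusted p 0.0978 (edgeR). E2F5, the closest relative of E2F4, ranged from 41.2 to 48.2 CPM with DMSO and from 35.8 to 46.1 CPM with CR31B, a log2 fold change of -0.15 ± 0.093 (SE; adjusted p 0.224, edgeR). With replicate number as a block, which compares libraries within pairs 2 to 4, both passed, E2F4 at an adjusted p of 0.0057 and E2F5 at 0.0353 (edgeR), with unchanged direction. GC and length offsets moved E2F4 to -0.09, where it passed neither without the block (adjusted p 0.364) nor with it (0.0692, edgeR). The same offsets moved E2F5 to -0.34, where it passed both without the block (adjusted p 0.0171) and with it (0.000392, edgeR). Upper quartile scaling gave -0.26 for E2F4 (adjusted p 0.00871) and -0.25 for E2F5 (adjusted p 0.0403, edgeR). E2F5 also passed without CR31B replicate 2 (-0.24, adjusted p 0.0453), and E2F4 without DMSO replicate 3 (-0.23, adjusted p 0.0318). Of the exonic bases of E2F5, 18.6% lie opposite exons of genes on the other strand, so its count is uncertain if strand was not used. E2F6 had 59 to 63.5 CPM with DMSO and 54.9 to 61.1 CPM with CR31B, and a log2 fold change of -0.06 ± 0.058 (SE) and an adjusted p of 0.481 (edgeR). The 4 processed copies of E2F6 and the 1 of E2F4 had 0 counts in every library, and the 2 copies of E2F3 had 10 and 2 counts over all libraries, against 58200 for E2F3.

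The atypical repressors E2F7 and E2F8, which are close relatives and carry a pair of DNA-binding domains each, parted from one another. E2F8 had the largest fold change of the 10 members. It had 26.85, 27.35 and 25.7 CPM in DMSO libraries 2 to 4 and 50.55, 45.2 and 44.6 CPM with CR31B. Every CR31B value was far above every DMSO value, with means of 46.8 ± 3.26 CPM (SD, n = 3) and 26.6 ± 0.85 CPM (SD, n = 3). E2F8 rose 1.76-fold, a log2 fold change of 0.81 ± 0.065 (SE; adjusted p 6.95e-06, edgeR). In pair 1 the values were 25.7 CPM in the library labelled CR31B, which is within the single-end DMSO range, and 45.8 CPM in the library labelled DMSO, within the single-end CR31B range. E2F7 ranged from 64.3 to 69.6 CPM with DMSO and from 60.4 to 67.3 CPM with CR31B. Its log2 fold change of -0.07 ± 0.059 (SE) had an adjusted p of 0.376 (edgeR). GC and length offsets moved E2F7 to -0.21 with an adjusted p of 0.0218 (edgeR), and upper quartile scaling moved it to -0.17 with an adjusted p of 0.0239. The ratio of E2F8 to E2F7 in CPM per kb went from 0.599 ± 0.044 (SD, n = 3) with DMSO to 1.105 ± 0.064 (SD, n = 3) with CR31B. That ratio was chosen after the values had been seen and was not tested.

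**Figure D2:**
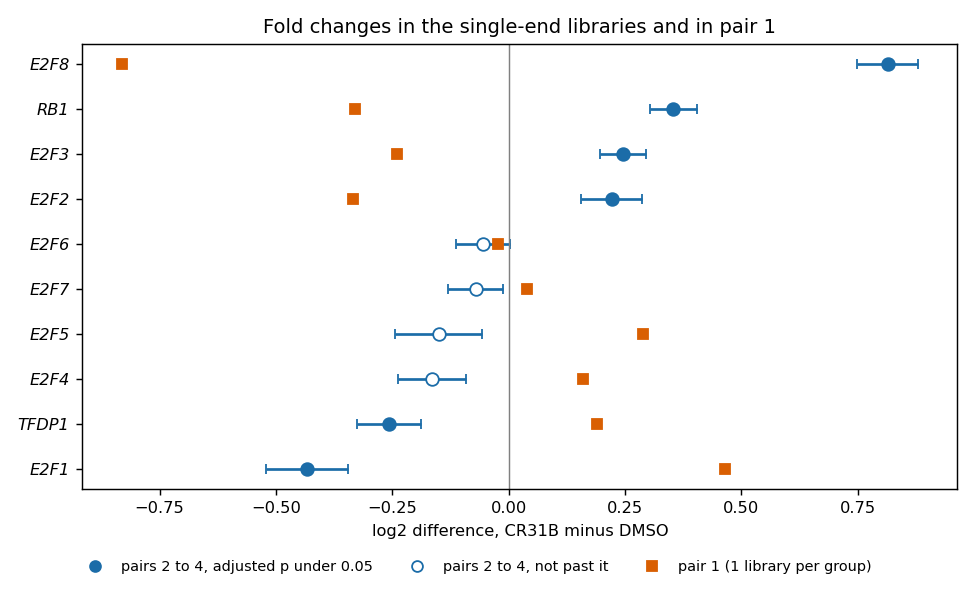
Log2 difference between CR31B and DMSO (horizontal axis) for each member. Circles are the edgeR estimates from pairs 2 to 4 with their standard errors, filled where the adjusted p is under 0.05, and squares are the single difference in pair 1. Circle and square lie on opposite sides of 0 for 9 of the 10 members, E2F6 being the exception.

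Levels of different genes were compared per kb of exon, from GENCODE 29, in the single-end DMSO libraries. TFDP1 stood highest at 85.8 ± 4.24 CPM per kb (SD, n = 3), followed by E2F1 at 70.4 ± 6.02 CPM per kb (SD, n = 3). E2F1 was thus the most abundant E2F transcript on this scale, and the next, E2F3, had 24 ± 0.72 CPM per kb (SD, n = 3). RB1 followed with 22 ± 0.43 CPM per kb and E2F4 with 21.7 ± 1.64 CPM per kb (SD, n = 3 each), and the ranges of these 2 overlapped. E2F6 came next at 15 CPM per kb, then E2F7 at 10.8 CPM per kb. E2F2 at 8.22 and E2F5 at 7.66 CPM per kb overlapped in range, and E2F8 was lowest at 6.43 ± 0.21 CPM per kb (SD, n = 3). With CR31B E2F8 stood at 11.3 ± 0.79 CPM per kb (SD, n = 3), above the means of E2F7 (10.2), E2F2 (9.57) and E2F5 (6.89). These levels take all annotated exons of a gene as its length, so genes with long alternative exons are set too low.

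Summed by class, in CPM per kb, the activators E2F1 to E2F3 had 103 ± 6.79 (SD, n = 3) with DMSO and 90.1 ± 6.43 (SD, n = 3) with CR31B in the single-end libraries. E2F4 to E2F6 had 44.4 ± 2.67 and 40.7 ± 3.17, and E2F7 with E2F8 had 17.2 ± 0.37 and 21.5 ± 1.22 (SD, n = 3 each). The ratio of E2F1 to RB1, both in CPM per kb, was 3.52, 3.02 and 3.08 in DMSO libraries 2 to 4 and 2.15, 1.69 and 1.75 with CR31B. The 3 CR31B ratios were below the 3 DMSO ratios. In pair 1 this ratio was 2.81 in the library labelled CR31B and 1.62 in the library labelled DMSO. These sums and ratios were chosen after the values had been seen and carry no test.

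**Figure D3:**
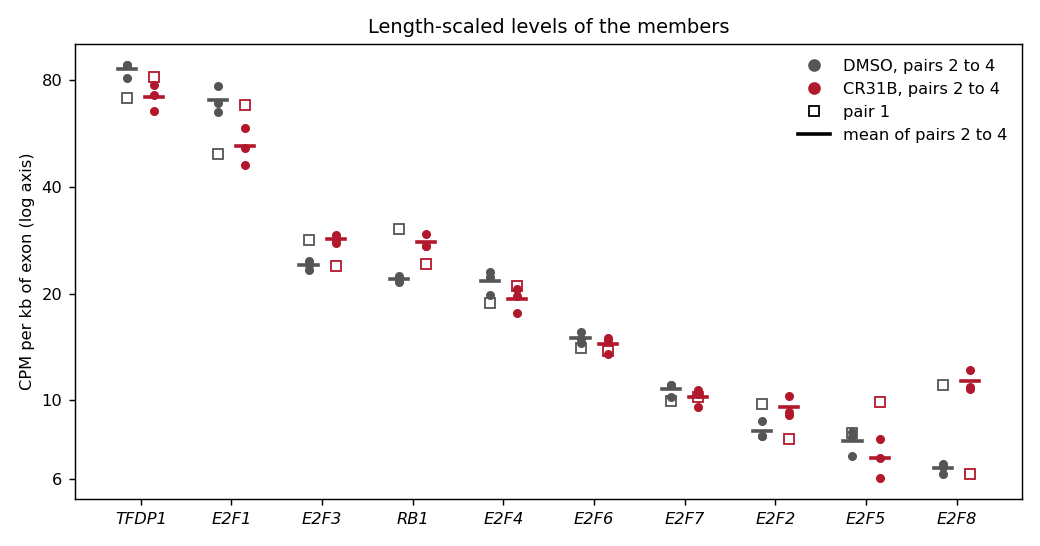
Length-scaled level of each member in CPM per kb of exon (log axis), ordered by mean level in DMSO libraries 2 to 4. Filled points are libraries of pairs 2 to 4, bars their means and open squares the libraries of pair 1. TFDP1 and E2F1 lie apart from the rest, and E2F8 moves from the bottom of the order with DMSO to above E2F7 with CR31B.

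The rest of the pathway was counted in lists in the single-end libraries, where 41.3% of all tested genes were called, 23.8% higher and 17.6% lower. With all 8 libraries no gene of any list passed. The other pocket and DP proteins gave no call: RBL1, RBL2 and TFDP2 had log2 fold changes between 0.007 and 0.051 (0 of 3 tested). With GC and length offsets and the replicate block together all 3 were called lower. Of the 8 MuvB, MYB and FOXM1 genes, whose products form the DREAM and MMB complexes, 2 rose and 4 fell (6 of 8, against 41.3% of all genes), with a median of -0.17 beside -0.007 for all genes. LIN54, the DNA-binding subunit of MuvB, rose by 0.35 ± 0.06 (SE, log2), RBBP4, a histone-binding subunit, had a log2 fold change of -0.31 ± 0.054 (SE), LIN52 of -0.33 ± 0.063 and FOXM1, the mitotic transcription factor, of -0.24 ± 0.049. RBBP4 had -0.52 with GC and length offsets. LIN54 was no longer called with GC and length offsets (0.14, adjusted p 0.0943, edgeR), a setting in which 0 of the 8 were called higher.

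Among 15 tested RB kinases, cyclins and CDK inhibitors 3 rose and 2 fell, 5 of 15 in all, near the background of 41.3%. CDKN1B, the CDK inhibitor p27, rose by 0.66 ± 0.046 (SE, log2) and CDK6, an RB kinase, by 0.57 ± 0.055. CDC25A, the phosphatase that activates CDK2, rose by 0.29 ± 0.049. For CCNE1, the cyclin E that activates CDK2, the log2 fold change was -0.44 ± 0.062 (SE). With GC and length offsets CDK6 had 0.31, and CDC25A had 0.19 with upper quartile scaling. The number called lower was 2, and 5 with upper quartile scaling, total counts or no filter; it was 4 with RLE, the CPM filter, DESeq2, the replicate block or without CR31B replicate 3, and 1 with GC and length offsets or without DMSO replicate 2, CR31B replicate 2 or CR31B replicate 4.

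Textbook G1/S targets of E2F were called in both directions. Of 36 tested, 13 rose and 7 fell (20 of 36, against 41.3% of all genes), with a median of -0.008 beside -0.007 for all genes. CDC6 and ORC1, which license replication origins, rose by 0.68 ± 0.052 and 0.54 ± 0.076 (SE, log2). The balance depended on scaling, with 6 higher and 17 lower under upper quartile scaling, whose median over all genes was -0.10, and 7 higher and 16 lower under total counts. With GC and length offsets 7 were higher and 9 lower. The number called higher was 8 without DMSO replicate 2, CR31B replicate 2 or CR31B replicate 4, and the number called lower was 4 without DMSO replicate 3 or DMSO replicate 4. The number called lower was also 11 with no filter or with offsets and block together, and 12 with the CPM filter, where 9 were higher.

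Of the 10 genes of PRC1.6, the Polycomb complex that E2F6 brings to promoters, 6 rose and 0 fell, against 23.8% and 17.6% of all genes, with a median of 0.18 beside -0.007. MGA, its scaffold, rose by 0.47 ± 0.054 (SE, log2), RING1, a ubiquitin ligase subunit, by 0.51 ± 0.064, MAX, the dimer partner of MGA and of MYC proteins, by 0.35 ± 0.053 and RYBP by 0.27 ± 0.051. With GC and length offsets 3 rose and 1 fell, MGA had 0.24 and RYBP was not called (0.047, adjusted p 0.497, edgeR). Of 10 chromatin partners of RB1, 4 rose and 0 fell, with a median of 0.061. The 4 called of 10 are near the background of 41.3%. In this list 1 gene fell with upper quartile scaling, total counts, no filter or GC and length offsets, and 2 with offsets and block together. The 4 were ARID4A (0.86 ± 0.067), KDM5A (0.69 ± 0.052), SMARCA2 (0.71 ± 0.23) and RBBP7 (0.48 ± 0.048; log2 fold change and SE for each). ARID4A and KDM5A were first found as RB1-binding proteins. SMARCA2, at 7.81 CPM on average, was not called under 8 of the 16 other settings, with adjusted p between 0.0512 and 0.0964 there, among them DESeq2 and leaving out DMSO replicate 2, DMSO replicate 4, CR31B replicate 3 or CR31B replicate 4. HDAC1 and HDAC2 are in both lists and passed in neither.

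Of 7 apoptosis genes known as E2F1 targets 3 rose and 1 fell, or 4 of 7 against 41.3% of all genes (2 fell with offsets and block together). APAF1, the core of the apoptosome, rose by 0.56 ± 0.067 (SE, log2; 0.36 with GC and length offsets), PMAIP1 by 0.43 ± 0.065 and BBC3 by 0.46 ± 0.12, whereas BCL2L11 had -0.33 ± 0.064. BBC3 averaged only 4.16 CPM, and its log2 difference was 0.19, 0.60 and 0.59 in pairs 2, 3 and 4. Of the E3 ligase subunits that act on E2F proteins or their regulators, FZR1 rose by 0.42 ± 0.072, CCNF had -0.34 ± 0.072, and SKP2 did not pass (0.11 ± 0.057, adjusted p 0.138; 0.0341 with the replicate block, edgeR). In pair 1 every gene called in these lists differed in the opposite direction, as 98.9% of all called genes did.

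**Figure D4:**
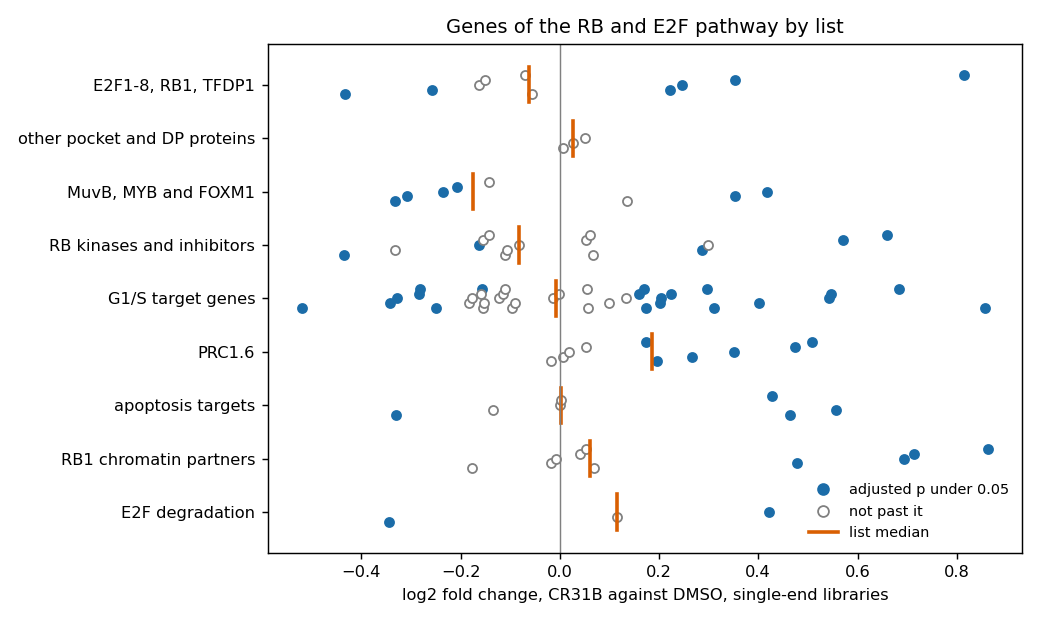
Log2 fold change of CR31B against DMSO in the single-end libraries (horizontal axis) for the genes of each list. Filled points passed an adjusted p of 0.05, open points did not, and bars mark list medians. Called genes lie on both sides of 0 in the rows of members, MuvB genes, RB kinases and G1/S targets, while all 6 called PRC1.6 genes and all 4 called chromatin partners of RB1 lie to the right.

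The genes whose pattern over the 8 libraries was most like that of E2F1 and RB1 were sought among 10786 genes, by the root mean square difference of centred log2 CPM. For E2F1, whose own root mean square deviation was 0.247, they included DPH7 (0.044) and TMSB15A (0.049). For RB1, with 0.186, they were FAM72D (0.024), TYW3 (0.025) and ERP44 (0.029). FAM72D has near-identical paralogs, so its count is uncertain. All of them share libraries, depth and scaling with the member they are set beside, which makes this a description only.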

How the data were processed

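Polyadenylated RNA of 8 IMR32 libraries was sequenced, 4 per group. The authors deposited raw counts per Ensembl gene, 1 column per library. The submitters' processing notes name GRCh38, FastQC 0.11.7, STAR 2.7.2b, edgeR 3.36.0 and limma 3.50.3. The counting tool and annotation are not given in the sources used here, and strand only as the word reverse in the table's name. The header of CR31B replicate 4 lacks its first letter and was matched by the rest. Symbols, positions and exon lengths came from GENCODE 29 by identifier (58515 of 58787 matched), promoters from RefSeq (GRCh38.p14).

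The test on these counts was the two-sided quasi-likelihood test of edgeR 4.0.16, run in R 4.3.3 (filterByExpr, TMM, Benjamini-Hochberg over all tested genes), with layout as a covariate for 8 libraries and without it for the 6 single-end libraries. Alternatives used DESeq2 1.42.0, limma 3.58.1 (voom), other scalings and filters, loess offsets on GC and transcript length, a replicate block, and each library left out. Each SE is the absolute log2 fold change divided by the square root of the F statistic of its edgeR test. CPM uses TMM factors of all 8 libraries, and differences within pairs were taken on log2 CPM (prior count 1). Levels may carry PCR duplicates, which were not examined here, so depth covers counting error only. The smallest mean chi-square per gene between libraries of a group was 7.28 (1 for draws from one library), so each counted once. Deviations from group means of same-numbered single-end libraries correlated at 0.208, 0.388 and 0.157 (pairs 2, 3 and 4). The values were positive, so a pairing by number is possible, but libraries of different numbers were not compared. The main fit of the single-end libraries, with its SE and adjusted p, did not use these pairs, and the fit with the replicate block did. With all 8 libraries the correlations were -0.527, -0.078, 0.159 and -0.108 (pairs 1, 2, 3 and 4).

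Members and lists were chosen with earlier results of these data known. All members were named, then up to 4 called genes per list with the smallest adjusted p, then 3 genes most like E2F1 and RB1 with a mean of at least 5 CPM. Some genes that this rule names are not reported here. On simulated counts for the single-end libraries (16696 genes), 89% of 100 genes changed by 0.5 on the log2 scale and 99% of 100 changed by 1 were recovered, with 15 false calls among 203. The simulation set the spread beyond counting error alike for every gene and had no effect of replicate number. Far fewer genes were changed in it than were called in the data. Changes under 0.5, such as those of all members but E2F8, were not simulated.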

Additional observations from a re-analysis of the deposited data

Results flagged for a closer look

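A treatment difference that was not the same in paired-end and single-end libraries was found for 6 members by the interaction of layout and treatment (edgeR, adjusted p under 0.05). On the log2 scale the paired-end difference minus the single-end difference was -1.64 for E2F8, -0.68 for RB1, -0.56 for E2F2 and -0.48 for E2F3, and it was 0.898 for E2F1 and 0.45 for TFDP1. The adjusted p ranged from 7.26e-06 for E2F8 to 0.0223 for TFDP1. The paired-end layout holds 1 library per group, and layout and replicate 1 cannot be told apart.

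In 2 of 20 groups of 4 libraries a single library stood far from the others, measured as the distance to its closest neighbour divided by the full range, where chance gives about 1 in 20. Both were the library labelled DMSO replicate 1, with a ratio of 0.918 for E2F8 and 0.906 for RB1.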

How the results depend on the processing

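E2F1, E2F3, E2F8 and RB1 kept their direction and their call in the single-end libraries under all 16 alternatives, with log2 fold changes from -0.53 to -0.35 for E2F1, 0.15 to 0.27 for E2F3, 0.72 to 0.85 for E2F8 and 0.17 to 0.38 for RB1. TFDP1 lost its call in 1 and E2F2 in 5. E2F4 gained one in 6, E2F5 in 5, E2F7 in 4 and E2F6 in 1 (upper quartile scaling, -0.15, adjusted p 0.033, edgeR). No member changed direction. The number of members called lower was 2, but 6 with upper quartile scaling and 4 with total counts, with the replicate block, with GC and length offsets, and with offsets and block together; leaving out single libraries gave 1 (without DMSO replicate 4, E2F1 alone) to 3. The number called higher stayed within 1.5 times of 4, and the number of genes called within 1.5 times of 6901 (8540 with the replicate block). The block moved no other member call than those of E2F4 and E2F5. With all 8 libraries the replicate block also gave 0 genes and 0 members. That count changed only without pair 1 or one of its libraries. The single-end libraries alone gave 6901 genes and 6 members, and leaving out single libraries gave 0 to 6920 genes and 0 to 6 members, with 6906 genes without DMSO replicate 1 and 6920 without CR31B replicate 1. The causes were not tested. Depth was no limit for the members, with at least 1320 counts in every library.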
